A study of Homo sapiens with 6 samples.

Results

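The small nucleolar RNA (snoRNA) host genes GAS5, SNHG1, SNHG3, SNHG5, SNHG6, SNHG7, SNHG8, SNHG12, SNHG15 and SNHG16 were examined in BT-549 cells, a human triple-negative breast cancer line. The 10 genes were chosen by symbol, and all 10 had a row among the 19792 genes of the deposited table. BT-549/tet-WDR5shRNA cells carry a puromycin-selected vector with a WDR5 shRNA behind a tetracycline-inducible promoter, and all 6 libraries came from these cells. In 3 cultures the cells received vehicle (0.1% DMSO), in which the shRNA is carried with no inducer added, and in 3 cultures doxycycline (DOX, 500 ng/ml) for 7 days. The cell line and the vector are shared by every culture, so the cells treated with vehicle are not cells without the shRNA. The labels speak of triplicate cultures and do not say whether the cells were 1 clone.

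Small nucleolar RNAs are short nuclear RNAs that guide enzymes to ribosomal RNA. Box C/D snoRNAs direct ribose methylation and box H/ACA snoRNAs direct the conversion of uridine to pseudouridine, while a few, such as SNORD22 (U22) and SNORA73 (U17), serve in the cutting of the ribosomal RNA precursor. In humans most are made from introns of a host gene, from which they are released after splicing, and the spliced exons of hosts such as GAS5 carry little protein-coding sequence and are known substrates of nonsense-mediated decay. Many hosts start transcription at a C within a pyrimidine tract, as genes of ribosomal proteins do.

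The value analysed for each gene was the authors' mean normalized count, which is read counts scaled for depth and averaged over all 6 libraries, with vehicle and DOX together. A single pooled value has no SD, and levels of single cultures were not analysed here. The comparison of DOX with vehicle, which the design implies for every host gene, was therefore not made, and no value below separates the 2 treatments. Depth was recovered only in part. The smallest means in the table are those of genes with 1 read in 1 library, and their 6 distinct steps (0.124 to 0.226) gave size factors from 0.737 to 1.34, so that the deepest library had 1.82 times the depth of the shallowest. With these factors, 3195 of 3195 genes with a mean under 1 came out as whole reads (tolerance 1e-09), but which factor belongs to which culture is unknown. The means of all genes sum to 26551206, of which the 10 hosts held 0.065%.

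The labelled cell type was checked by its markers, which fitted it in part. The mesenchymal genes VIM (vimentin, 47782), CD44 (48038) and FN1 (fibronectin, 30461) had the mean normalized counts given in brackets, whereas the hormone receptor genes ESR1 and PGR were at 0.79 and 0.801 and the epithelial adhesion gene EPCAM was at 1.3. Of the 7 genes listed as high, the other 4, SPARC, ZEB1, COL1A1 and CDH2, were at 19657, 7333, 4755 and 4093. Of the 8 genes listed as low, the other 5 were not near 0, with ERBB2 at 1221, KRT18 at 435, GATA3 at 362, CDH1 (E-cadherin) at 59.6 and KRT8 at 57.3. The markers of other cell types, PTPRC for leukocytes, PECAM1 for endothelium and ALB for hepatocytes, were at 44.7, 2.86 and 4, with CD3E not analysed here. The targeted gene WDR5 had a mean normalized count of 1143 over vehicle and DOX cultures together.

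The snoRNAs inside the hosts are shown first, since they are what the genes are named for. In the RefSeq annotation (GRCh38.p14), 36 snoRNA genes lie within the spans of the 10 hosts, 25 of the box C/D class, 10 of the box H/ACA class and 1 without a class in its name. Printed here, from the GRCh38 genome, is the snoRNA with the highest mean normalized count in each of 8 hosts, read on the strand of the host from 5′ to 3′. Capitals mark the sequence TGATGA (box C) near the start and CTGA (box D) near the end of box C/D snoRNAs, and the ACA near the end of box H/ACA snoRNAs.
SNORD80 (chr1:173864833-173864903, minus strand, in GAS5): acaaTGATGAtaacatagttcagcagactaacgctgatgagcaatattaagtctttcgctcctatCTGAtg
SNORD31 (chr11:62853326-62853393, minus strand, in SNHG1): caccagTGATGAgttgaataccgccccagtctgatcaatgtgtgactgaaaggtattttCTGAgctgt
SNORD50B (chr6:85677589-85677659, minus strand, in SNHG5): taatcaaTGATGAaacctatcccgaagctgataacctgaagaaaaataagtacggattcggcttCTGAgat
SNORD1C (chr17:76558790-76558869, plus strand, in SNHG16): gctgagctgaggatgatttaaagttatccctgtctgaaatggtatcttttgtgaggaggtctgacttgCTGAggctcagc
SNORA73A (chr1:28507365-28507571, plus strand, in SNHG3): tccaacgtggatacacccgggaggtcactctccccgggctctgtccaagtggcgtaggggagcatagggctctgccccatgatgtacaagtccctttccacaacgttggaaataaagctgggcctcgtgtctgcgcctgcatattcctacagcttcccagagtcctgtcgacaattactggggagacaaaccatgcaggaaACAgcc
SNORA16A (chr1:28580920-28581053, minus strand, in SNHG12): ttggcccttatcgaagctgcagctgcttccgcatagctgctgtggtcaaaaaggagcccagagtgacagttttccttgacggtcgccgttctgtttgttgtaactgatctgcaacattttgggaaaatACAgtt
SNORA9 (chr7:44985378-44985510, minus strand, in SNHG15): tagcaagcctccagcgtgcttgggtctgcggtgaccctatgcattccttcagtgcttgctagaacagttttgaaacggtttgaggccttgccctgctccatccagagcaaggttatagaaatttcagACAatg
SNORA24 (chr4:118279190-118279320, plus strand, in SNHG8): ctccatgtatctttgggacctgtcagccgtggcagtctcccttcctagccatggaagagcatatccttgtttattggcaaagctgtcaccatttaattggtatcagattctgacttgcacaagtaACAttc

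The boxes were searched by their exact letters on the strand of the host. TGATGA was found in the first 20 bases of 15 of 25 box C/D snoRNAs, and on the opposite strand in 0 of 25. For comparison, it was in the first 20 bases of 0.353% of 35116 RefSeq promoter sequences. CTGA was in the last 15 bases of 24 of 25 box C/D snoRNAs, the exception being SNORD99, and in 1 of 25 on the opposite strand, against 6.28% of promoter sequences. ACA was in the last 10 bases of 9 of 10 box H/ACA snoRNAs, all but SNORA44, and in 3 of 10 on the opposite strand, against 7.73% of promoter sequences. The strand of the snoRNA genes was taken from the host, and these letters read in that sense. SNORD1C had no exact TGATGA in its first 20 bases, and its line above has capitals for box D alone. In the 8 snoRNAs printed, 3 of the 4 of the C/D class had both boxes and all 4 of the H/ACA class ended with ACA followed by 3 bases.

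The hosts differ in how many snoRNAs they hold. GAS5 (growth arrest specific 5, known as a decoy for the glucocorticoid receptor) contains 11, namely SNORD44, SNORD47, SNORD74 to SNORD81 and SNORA103. SNHG1 contains 9, namely SNORD22, SNORD25 to SNORD31 and the unclassed LOC124900306. The other 8 hosts hold between 1 and 4. SNHG12 has 1 box C/D snoRNA (SNORD99) and 3 of the H/ACA class (SNORA61, SNORA44, SNORA16A), and SNHG16 has SNORD1A, SNORD1B and SNORD1C. SNHG3 (SNORA73A, SNORA73B), SNHG5 (SNORD50A, SNORD50B) and SNHG7 (SNORA17A, SNORA17B) have 2 each. SNHG6 (SNORD87), SNHG8 (SNORA24) and SNHG15 (SNORA9) have 1 each. By RefSeq, 4 hosts hold the C/D class without H/ACA (SNHG1, SNHG5, SNHG6, SNHG16), 4 hold H/ACA without C/D (SNHG3, SNHG7, SNHG8, SNHG15), and GAS5 and SNHG12 hold both. The unclassed LOC124900306 of SNHG1 is left out of this grouping, and its class is not known here.

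**Figure D1:**
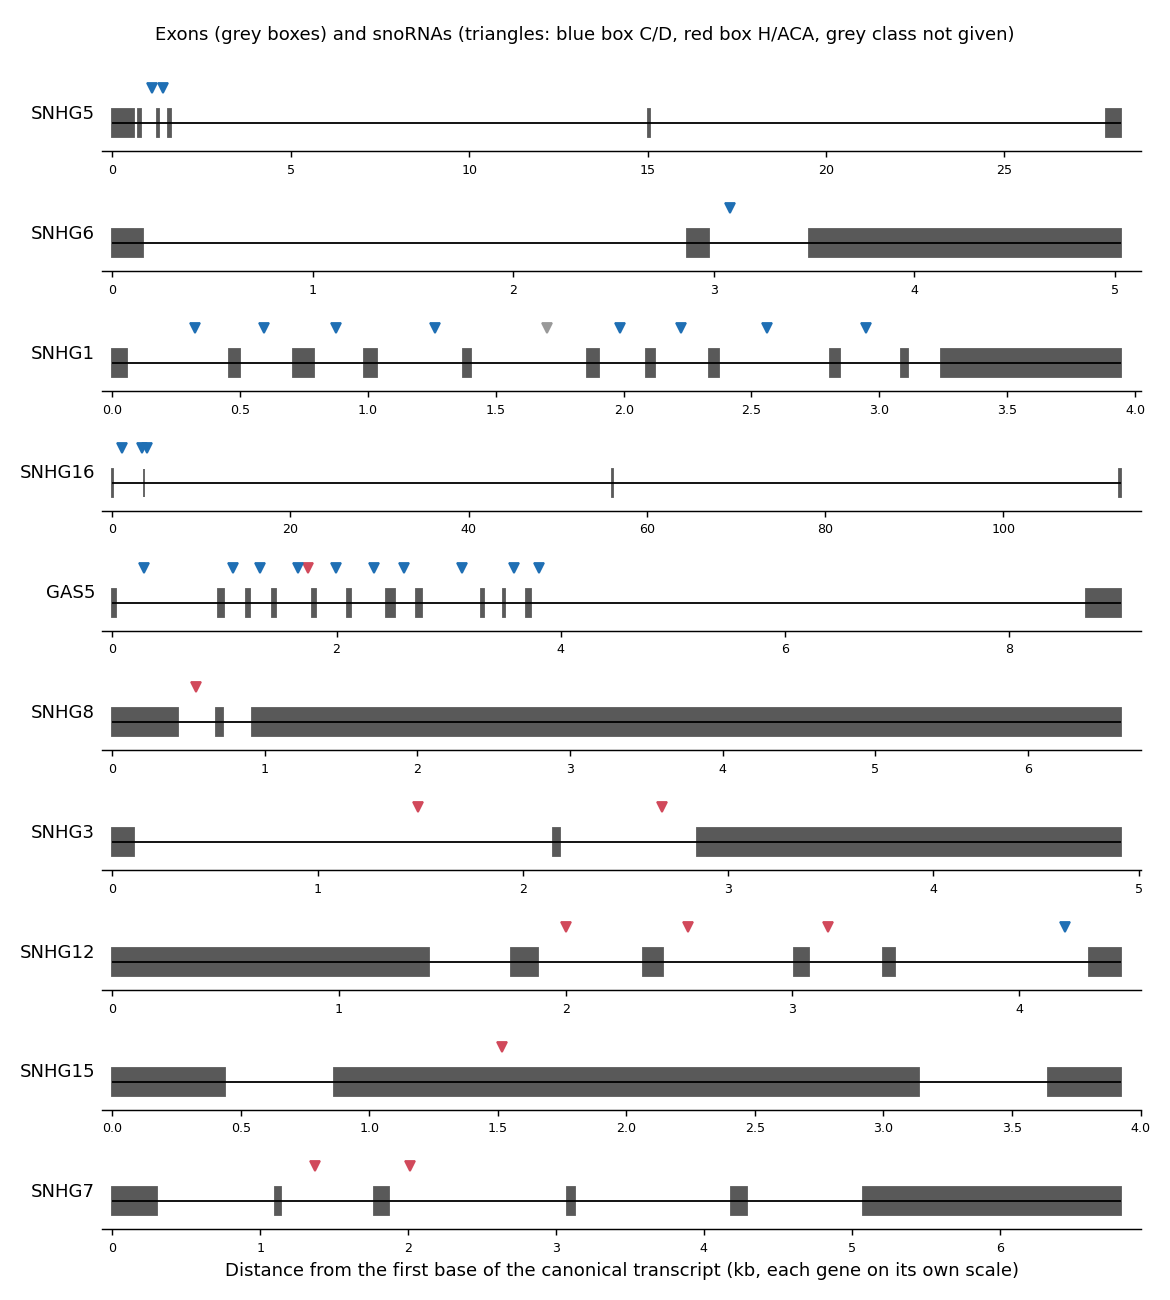
Exons of the GENCODE 44 canonical transcript (grey boxes) and snoRNA genes (triangles) of each host, from top to bottom by mean normalized count, plotted against the distance in kb from the first base of that transcript, with a separate scale for each gene. Of the 36 snoRNAs, 34 lie in introns, and in SNHG1 nearly every intron carries one.

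The position of the snoRNAs was described against the exons of the canonical transcript, the one that GENCODE 44 takes as representative of the gene. Of the 36 snoRNAs, 34 lay within introns and 2, SNORA103 in GAS5 and SNORA9 in SNHG15, overlapped an exon. SNORA103 spans 1699 to 1784 bases from the first base of the transcript and the exon 1783 to 1812, so only its edge overlaps. SNORA9 lies wholly inside an exon. The 25 box C/D snoRNAs ended a median of 82 bases before the next exon, and 17 of the 25 ended between 60 and 100 bases before it, a range chosen after the distances were seen. The 8 intronic H/ACA snoRNAs had a median distance of 302 bases, with a range from 67 to 993, and 2 of the 8 lay between 60 and 100 bases. In SNHG1 the distance was between 69 and 75 bases for 6 of the 8 classed snoRNAs, with SNORD25 at 98 and SNORD31 at 210. The longest distances belong to annotated canonical transcripts that skip nearer exons. SNORD1A of SNHG16 ended 52211 bases before the next canonical exon and 1412 bases before the next exon of any transcript, and SNORD81 of GAS5 ended 4840 and 47 bases before them. With exons of any transcript, the median for the C/D class was 75 bases.

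The host genes were then placed among all genes by mean normalized count. In rank order from 1, the highest of 19792, SNHG5 stood at 1617 with a mean normalized count of 3737, above 91.8% of genes. SNHG6 followed with 3283, SNHG1 with 2858, SNHG16 with 2777 and GAS5 with 1881, above 90.4%, 88.7%, 88.3% and 82.7% of genes. SNHG8 had 974, SNHG3 682, SNHG12 435 and SNHG15 421, above 71.7%, 65.9%, 59.4% and 59.0% of genes. SNHG7 was the lowest with 205, above 50.9% of genes. All 10 thus lay above the median of all genes, which was 187, and the median of the 10 was 1427. The choice of well-known genes as members favours measured ones, and this placement is a description with no test.

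**Figure D2:**
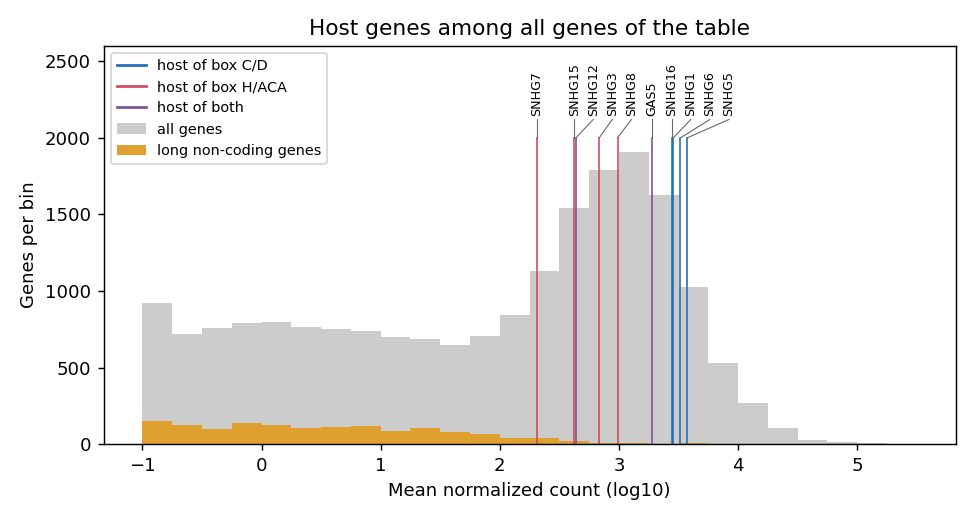
Number of genes per bin of 0.25 by log10 mean normalized count, for all 19792 genes (grey) and the 1436 genes that GENCODE 44 calls long non-coding (orange), with 1 vertical line for each host gene coloured by the class of snoRNA it holds. The hosts lie between 205 and 3737, in the upper part of both distributions.

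Among long non-coding genes the hosts ranked high. Symbols matched 1436 genes that GENCODE 44 calls long non-coding, with a median mean normalized count of 2.62. Within them SNHG5 ranked 6, SNHG6 7, SNHG1 9, SNHG16 10 and GAS5 12. SNHG8, SNHG3, SNHG12 and SNHG15 ranked 19, 25, 33 and 36, and SNHG7 ranked 77. Genes whose symbols have changed since the table was made were not counted among the 1436.

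Counting error was small for every host. With the sum of the 6 size factors (6.162), the mean normalized counts correspond to about 23023 reads over the 6 libraries for SNHG5 and about 1260 for SNHG7, whose counting errors are 0.659% and 2.82% of the value. The other hosts had about 2596 (SNHG15) to 20229 (SNHG6) reads. These errors cover counting alone, and the spread between cultures is not in them.

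Levels were compared between hosts per length, because a longer transcript yields more reads. Exonic length, the bases covered by exons of any GENCODE 44 transcript, ranged from 2527 for SNHG6 to 12604 for SNHG5, for which 89 transcripts are annotated. GAS5 has 91 transcripts and SNHG1 80, against 8 for SNHG6 and 3 for SNHG3. The annotation used for counting is known only by the suffix of the build's name. These lengths may therefore include exons that were not counted, which would lower the value per kb and could change the order of the hosts. For SNHG1 (3976 bases), SNHG8 (6614) and SNHG15 (3943), the exons of all transcripts together cover the whole gene. Their exonic length is thus the length of the gene and not of 1 spliced transcript. Per kb of exonic length, SNHG6 had the highest mean normalized count, 1299, followed by SNHG1 with 719, SNHG16 with 481, GAS5 with 381 and SNHG5 with 296. SNHG3 (167), SNHG8 (147), SNHG15 (107), SNHG12 (102) and SNHG7 (41.8) formed the lower group on this scale. The median gene had 52.2 per kb of exonic length, which 9 of the 10 hosts exceeded and SNHG7 did not. The highest and the lowest host differed 31.1-fold.

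The order within the upper group depended on which length was used. Per kb of the canonical transcript, a scaling added after the data were seen, SNHG16 had the highest mean normalized count, 5576, followed by SNHG5 (2839), SNHG1 (2460), GAS5 (2449) and SNHG6 (1803). The canonical transcript of SNHG16 has 498 bases in 4 exons spread over 113 kb, and that of GAS5 has 768 bases in 12 exons, whereas that of SNHG8 has 6166 bases in 3 exons. The exonic length is 5776 bases for SNHG16 and 4932 for GAS5. The count is that of the whole gene and can include reads from exons outside the canonical transcript. Such reads raise the value on this scale, most where that transcript is a small part of the exonic length. In the lower group the values were 310 for SNHG3, 232 for SNHG12, 158 for SNHG8, 141 for SNHG15 and 86.8 for SNHG7. The same 5 genes made up the upper group on each of the 3 scales, and the same 5 the lower. Neighbours such as SNHG15 and SNHG12 per kb of exonic length (107 and 102), or SNHG1 and GAS5 per kb of canonical transcript (2460 and 2449), cannot be ordered without values of single cultures.

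**Figure D3:**
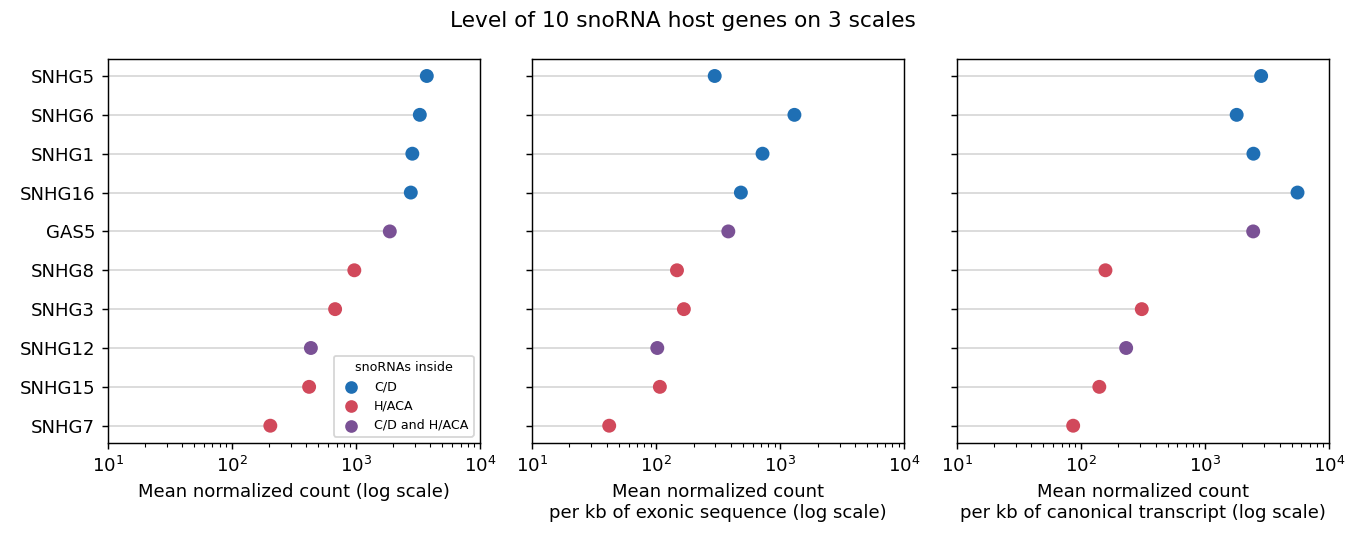
Mean normalized count of the 10 hosts as deposited (left), per kb of exonic sequence (middle) and per kb of canonical transcript (right), on log axes, with 1 point for each gene as the pooled value of 6 libraries and no error bar, coloured by the class of snoRNA inside. The 4 hosts of box C/D snoRNAs alone (the unclassed snoRNA of SNHG1 left out) lie to the right of the 4 hosts of box H/ACA snoRNAs alone on each scale.

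The grouping by level ran with the class of snoRNA in these 10 genes. With the unclassed snoRNA of SNHG1 left out, the 4 hosts of box C/D snoRNAs alone had 296 to 1299 per kb of exonic length. The 4 hosts of H/ACA snoRNAs alone had 41.8 to 167. Per kb of the canonical transcript the ranges were 1803 to 5576 and 86.8 to 310. GAS5, with 10 box C/D snoRNAs and 1 H/ACA snoRNA, lay with the former, and SNHG12, with 1 and 3, lay with the latter. The grouping was made with the levels known, and it was not tested. Over a wider list of hosts the ranges overlapped. Per kb of exonic length, 4 further C/D hosts ranged from 0.00185 (SNHG14) to 489 (ZFAS1), with SNHG25 at 0.788 and SNHG19 at 112. On the same scale, 6 further H/ACA hosts ranged from 15.5 (SNHG11) to 88.5 (EPB41L4A-AS1). Per kb of the canonical transcript the ranges were 0.0323 to 899 for these C/D hosts and 37.7 to 697 for these H/ACA hosts. SNHG29 and SNHG30, which also hold C/D snoRNAs, had no length and are not in these ranges. TAF1D, with 2 C/D and 6 H/ACA snoRNAs, is not in them either. It had 269 per kb of exonic length and 1315 per kb of the canonical transcript. Unlike SNHG12, TAF1D thus lay above all H/ACA hosts given here on both scales.

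The wider list had 18 genes listed as snoRNA hosts, of which 16 had a row. SNHG29 was the highest of them as deposited, with a mean normalized count of 10934 under its older symbol LRRC75A-AS1, followed by ZFAS1 with 4068 and TAF1D, which encodes a subunit of the RNA polymerase I factor SL1, with 2146. The median of the 16 as deposited was 90.4, and SNHG14 (0.226) and SNHG25 (0.268) were under 10. The 16 include 3 genes whose RefSeq span held no snoRNA gene. SNHG14 is the long imprinted host of the SNORD115 and SNORD116 clusters. SNHG18 and SNHG32 were not analysed here.

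Several hosts share sequence with another gene, which bears on their counts. The kit named by the labels keeps the strand of the RNA, but whether counting used it is not given in the sources used here. SNHG3 lies on the same strand as RCC1, an exchange factor for the GTPase RAN with a mean normalized count of 2539, and 11% of the canonical SNHG3 bases are exonic in RCC1. For SNHG5, 60.7% of the canonical bases are also exonic in a same-strand readthrough gene that GENCODE lists as ENSG00000271793. On the opposite strand, exons of PRSS12 (mean normalized count 338) cover 40.3% of the canonical bases of SNHG8, and those of DIPK1B cover 46.4% of SNHG7. For SNHG6, MCMDC2 (mean normalized count 13.7) covers 81.7% on the opposite strand. The levels of SNHG3 and SNHG5 are uncertain to the extent that the counting split or dropped shared reads, and so are those of SNHG6, SNHG7 and SNHG8 if the counting did not use the strand.

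The snoRNA genes themselves had low counts in these libraries. The kit selects RNA with a poly(A) tail, which mature snoRNAs lack, and its part in these counts was not tested. Of the 36 snoRNAs inside the hosts, 31 had a row, with mean normalized counts from 0.287 (SNORD50A) to 46.5 (SNORD80), and 23 of the 31 were under 10. Their median was 7.09, and 316 rows named as snoRNAs or Cajal body RNAs in the whole table had a median of 1.73, of which 284 were under 10. SNORA103, LOC124900306, SNORA17A, SNORA17B and SNORA61 were not analysed here, so SNHG7 has no value for its snoRNAs.

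GAS5 held the highest of these rows. SNORD80 had a mean normalized count of 46.5, SNORD44 20.5, SNORD74 12.5 and SNORD78 11.3, and the remaining 6 with a row ranged from 0.762 (SNORD75) to 9.35 (SNORD47). In SNHG1, SNORD31 (27.9), SNORD25 (17.8) and SNORD22 (14.8) were above 10 and the other 5 with a row ranged from 2.08 (SNORD29) to 8.86 (SNORD28). SNORA73A and SNORA73B, near-identical copies in SNHG3 whose reads can be split or lost in counting, had 25.3 and 7.98. The lowest rows rest on few reads. SNORD75 had 5 reads over the 6 libraries, SNORA44 had 4, SNORD1B had 3 and SNORD50A had 2.

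The sum over the snoRNAs of a host was a small share of the host's own count. As deposited it was 6.46% for GAS5, 4.87% for SNHG3, 4.03% for SNHG12, 2.85% for SNHG1 and 1.79% for SNHG15. For SNHG8, SNHG6, SNHG5 and SNHG16 it was 0.366%, 0.216%, 0.202% and 0.156%. Per kb of their own length, the snoRNAs ranged from 3.83 (SNORD50A) to 655 (SNORD80), with a median of 66.0. SNORD80 was the 1 snoRNA of 31 that exceeded its host per kb of exonic length (655 against 381 for GAS5), and 0 of 31 exceeded the host per kb of canonical transcript. Reads of a snoRNA row from mature snoRNA and from unspliced host RNA cannot be told apart. SNORA9 lies within an exon of the canonical SNHG15 transcript, so its reads cannot be told apart from spliced SNHG15 RNA either. The snoRNAs of SNHG1 and SNHG8 lie in canonical introns but within exons of other annotated transcripts, so those transcripts could add to their reads. Overlap with exons of other transcripts was not analysed for the remaining hosts.

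**Figure D4:**
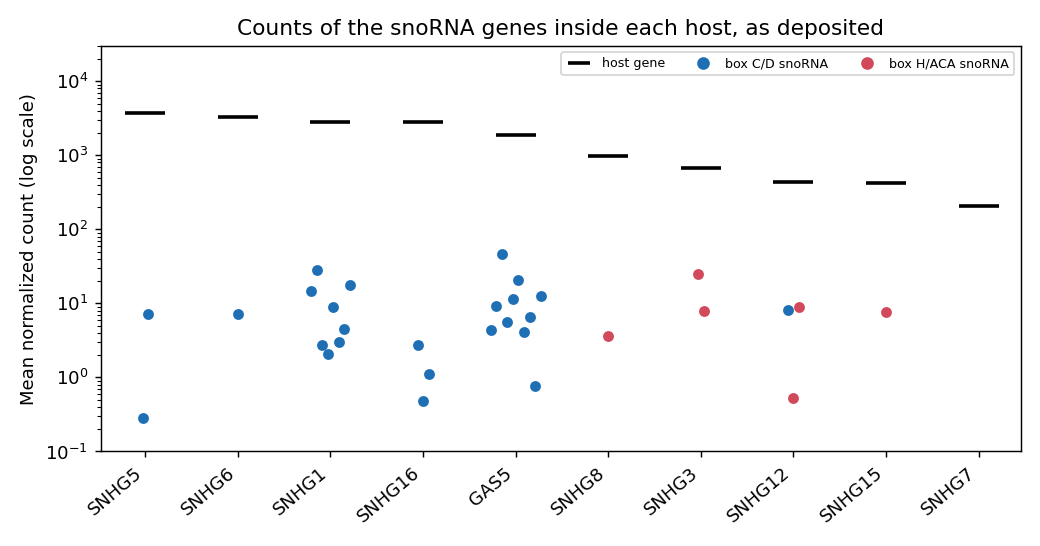
Mean normalized count on a log axis of each host gene (black bar) and of the snoRNA genes inside it that have a row (blue box C/D, red box H/ACA), with hosts from left to right by their own level. The snoRNA rows lie between 0.287 and 46.5, below the bars of all 10 hosts, and SNHG7 has none.

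The start sites were read next. The RefSeq promoter table held 8 of the 10 hosts, and SNHG6 and SNHG15 had no entry. Each line shows the 41 bases from 20 before to 20 after the RefSeq start (GRCh38.p14), on the strand of the gene and 5′ to 3′, with the start at position 21. Capitals mark the longest run of C and T that opens with C and has 5 or more bases.
GAS5 (chr1:173869025-173869065, minus strand): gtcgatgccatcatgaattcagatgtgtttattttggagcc
SNHG1 (chr11:62855865-62855905, minus strand): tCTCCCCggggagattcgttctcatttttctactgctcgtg
SNHG3 (chr1:28505923-28505963, plus strand): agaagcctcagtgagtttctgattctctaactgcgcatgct
SNHG5 (chr6:85678713-85678753, minus strand): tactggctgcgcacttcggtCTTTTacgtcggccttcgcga
SNHG7 (chr9:136728164-136728204, minus strand): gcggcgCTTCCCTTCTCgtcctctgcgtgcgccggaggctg
SNHG8 (chr4:118278742-118278782, plus strand): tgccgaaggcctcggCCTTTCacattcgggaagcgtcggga
SNHG12 (chr1:28581853-28581893, minus strand): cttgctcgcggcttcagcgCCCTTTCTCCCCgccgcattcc
SNHG16 (chr17:76557744-76557784, plus strand): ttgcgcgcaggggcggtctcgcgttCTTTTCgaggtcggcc

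A run of this kind was in the window of 6 of the 8 hosts, and 48.5% of 35116 RefSeq promoters also hold one. The other strand was not searched. In SNHG5 the run began exactly at the annotated start base and in SNHG12 it began 1 base before it, with lengths of 5 and 12 bases. Further runs of 5 bases, not in capitals, began 1 base before the start in SNHG7 and 12 bases after it in SNHG5. In SNHG8 the longest run began 5 bases before the start, in SNHG7 14 bases before and in SNHG1 19 bases before, and in SNHG16 it began 5 bases after. GAS5 and SNHG3 had no run of 5 that opens with C in the window. The window of SNHG3 does hold stretches of 5 or more C and T that open with T, which the search did not count. Within 5 bases on either side of the start, 4 of 8 hosts and 15.3% of promoters held a run. The RefSeq start differs from the outermost GENCODE 44 start by 163 bases for GAS5, 199 for SNHG5 and 1259 for SNHG12, and by 0 to 68 bases for the other 5, so the place of the run depends on the annotation. The canonical transcripts of GAS5, SNHG1, SNHG3, SNHG8 and SNHG12 start outside the windows printed, and those starts were not searched. Start sites in BT-549 cells were not measured.

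The core proteins that bind snoRNAs had 668 to 1821 per kb of exonic length, beside 41.8 to 1299 for the hosts. As deposited, the 4 box C/D core proteins were fibrillarin (FBL, the methyltransferase, mean normalized count 3859), NOP56 (5828), NOP58 (3543) and SNU13 (2173). Of the 4 box H/ACA core proteins, DKC1 (dyskerin, the pseudouridine synthase) had 7098, NHP2 2688, NOP10 1614 and GAR1 1311. Per kb of exonic length the C/D proteins had a median of 1130 and the H/ACA proteins a median of 898. The median of the 10 hosts was 232 and that of all genes 52.2. Per kb of the canonical transcript, the core proteins had 1292 (GAR1) to 3446 (NHP2) and the hosts 86.8 (SNHG7) to 5576 (SNHG16). On that scale the median of the 10 hosts was 1056, so the distance between hosts and proteins depends on the length used. Reads from exons outside the canonical transcript can raise these values too. The 10 genes of snoRNP assembly had a median of 251 per kb of exonic length, with NOLC1, a chaperone of snoRNPs in the nucleolus, at 2584, RUVBL2 at 865 and RUVBL1 at 490. The 10 genes of nonsense-mediated decay had a median of 213, with UPF3B at 821 and SMG5 at 723. None of these 28 genes was at 0 or missing, and the lowest, ZNHIT3, had 52.4 per kb of exonic length.

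By position (GRCh38, GENCODE 44), GAS5 lies at chr1:173858559-173868882 on the minus strand, and SNHG3 (plus strand, chr1:28505980-28510892) and SNHG12 (minus strand, chr1:28578538-28583132) lie close together on the short arm of the same chromosome. SNHG1 is at chr11:62851978-62855953, SNHG5 at chr6:85650491-85678932, SNHG7 at chr9:136721366-136728184 and SNHG15 at chr7:44983019-44986961, all on the minus strand. SNHG8 is at chr4:118278703-118285316 and SNHG16 at chr17:76557727-76670985, both on the plus strand.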

How the data were processed

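RNA-seq of 3 vehicle and 3 DOX cultures of BT-549/tet-WDR5shRNA cells was used. By the paper's methods and the labels, the authors prepared stranded poly(A) libraries, aligned reads to GRCh38 with STAR and normalized the counts with DESeq2. The labels name a column kit for the RNA and the paper names Trizol. The gene counter, the annotation beyond the suffix of the build's name, and any filter on low counts are not given in the sources used here. The unit analysed is a signal value, the mean normalized count over 6 libraries that the authors deposited for each symbol. The deposited table also has 5 columns of the authors' own comparison (log2 fold change with standard error, Wald statistic, raw and adjusted p-value), which were not used. It has 0 columns of single samples, so the count test planned for DOX against vehicle could not be run.

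From the means, relative depths were solved from the 6 smallest steps, and the solver and the search for pyrimidine runs were tested on simulated data. Symbols were matched to GENCODE 44 (17571 of 19792 with a length), and snoRNAs and starts to RefSeq (GRCh38.p14). Python 3.11.15, numpy 2.4.6, pandas 2.3.3 and matplotlib 3.10.9 were used. Genes named were the 10 hosts, the snoRNAs inside them, WDR5, the cell markers, and of each gene list the 3 highest per kb of exonic length (for the other hosts also as deposited) and any at 0 or without a row, except 1 gene that is not reported here. The members and lists were chosen with earlier results of these data known. Further single genes (the lowest of a list, hosts without a length, overlapping genes, all core snoRNP proteins) were named after their values were seen. Alternatives were another background, scaling by length, the members without the highest one, and other run lengths and windows.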

Additional observations from a re-analysis of the deposited data

How the results depend on the processing

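A percentile is the percentage of genes with a lower value. The median of the percentiles of the 10 hosts was 77.2 among all genes as deposited. This median was 66.7 among genes whose mean was 10 or more and 98.9 among long non-coding genes. It was 73.8 per kb of exonic length and 82.8 per kb of the canonical transcript (added after the data were seen). Without SNHG5, the highest member, it was 71.7 among all genes as deposited. SNHG7 lay below the median gene among genes with a mean of at least 10 (percentile 28.3) and per kb of exonic length (percentile 47.1). SNHG12 and SNHG15 lay below it among genes with a mean of at least 10 (percentiles 40.7 and 40.1). A pyrimidine run at the start was found in 6 of 8 hosts with 5 bases asked for, in 7 with 4 (69.4% of promoters), in 5 with 6 (31.5% of promoters) and in 4 within 11 bases. The median distance from a box C/D snoRNA to the next exon was 82 bases by the canonical transcript and 75 by any transcript, the latter also added after the data were seen. No paired analysis was possible because the table has no column of a single library. For the same reason the other normalization, filter and tool planned for DOX against vehicle, and leaving out a replicate, were not run. Low counts limit the snoRNA rows, of which 23 of 31 had a mean normalized count under 10, and not the hosts. The parts of depth and of poly(A) selection in those low counts were not tested.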
